A study of Mus musculus with 4 samples.

Results

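The 10 genes described here, the transferrin receptor gene Tfrc with genes of iron uptake, storage, export and sensing, were measured in mouse yolk sac at embryonic day 9.5. Every probe of the array whose platform gene symbol is Tfrc, Tfr2, Slc25a37, Slc11a2, Slc40a1, Fth1, Ftl1, Aco1, Ireb2 or Steap3 was taken, 22 probes for 10 of the 19057 named genes on the array. The genes were chosen with the difference between the groups already known, so their values are given as a description, without p-values. There were 2 groups of 2 Illumina bead arrays, all of strain C57BL/6. The first, labelled Flk1Cre;ETV2 CKO, carried a loxP-Cre inactivation of ETV2 that the labels place in FLK1+ cells, and the second is labelled control. The sample descriptions call the first group Mut and the second WT. No label says whether the WT samples carry the Cre or the loxP alleles, nor whether 1 array holds 1 embryo or a pool. RNA came from whole yolk sacs, so any cell without FLK1 is in the sample too.

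Cells take up iron bound to transferrin through the transferrin receptor on their surface, reduce it in the endosome with a STEAP enzyme, and move it to the cytosol through the transporter DMT1. It then goes to the mitochondria for heme and iron-sulfur clusters, into the ferritin shell for storage, or out of the cell through ferroportin. Uptake and storage are regulated by the iron regulatory proteins IRP1 and IRP2, which bind stem-loops in messenger RNAs when iron is low. This protects the Tfrc message from decay, while it blocks translation of the ferritin messages without lowering their amount. In the yolk sac, primitive red cells use iron for hemoglobin, and the endoderm makes transferrin and passes nutrients to the embryo.

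Of the array's 45281 probes, each sample had 17934 to 18798 above background, and the test covered 10603 named genes. With 2 arrays a group the precision is limited. No label says that the arrays come from separate embryos or litters, so the p-values rest on a spread that may be technical. The Etv2 probe did not follow the labels, since the CKO-labelled arrays gave raw intensities of 206 and 227 and the controls 157 and 177. Whether that probe lies in the deleted part is not known here, so the directions below rest on the labels. Xist was higher by 1.05 and Eif2s3y lower by a log2 difference of -0.73 on the CKO-labelled arrays. Both were above background on each array, and sex make-up cannot be told apart from the group. All 15 tested visceral endoderm markers and all 7 globin genes on the array were above background on each array, while Kdr, the gene of FLK1, did not pass the detection filter.

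Promoter sequence from RefSeq (GRCm38.p6) was found for 7 of the 10 genes, in 14 windows, and not for Slc25a37, Slc11a2 and Slc40a1. The windows of Tfrc, the member that differed most, and of both ferritin genes, which differed least, are shown as the 250 bases before an annotated transcript start. Capitals mark the core letters of an ETS factor site (GGAAG or CTTCC), of a hypoxia response element (ACGTG or CACGT) and of a GATA site (GATA or TATC), searched on both strands. Tfrc lies at chr16:32608872-32609121 on the plus strand, Fth1 at chr19:9982396-9982645 on the plus strand and Ftl1 at chr7:45459887-45460136 on the minus strand.
Tfrc: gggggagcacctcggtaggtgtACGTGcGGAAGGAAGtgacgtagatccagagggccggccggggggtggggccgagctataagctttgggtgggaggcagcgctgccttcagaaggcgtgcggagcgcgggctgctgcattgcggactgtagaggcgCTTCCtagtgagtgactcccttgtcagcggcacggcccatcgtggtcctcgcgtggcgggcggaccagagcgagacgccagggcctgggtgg
Fth1: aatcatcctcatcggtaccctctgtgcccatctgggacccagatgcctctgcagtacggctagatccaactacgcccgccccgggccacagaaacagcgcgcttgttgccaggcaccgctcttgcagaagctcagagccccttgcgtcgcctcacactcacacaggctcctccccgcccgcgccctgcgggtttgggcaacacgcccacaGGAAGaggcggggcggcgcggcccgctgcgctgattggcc
Ftl1: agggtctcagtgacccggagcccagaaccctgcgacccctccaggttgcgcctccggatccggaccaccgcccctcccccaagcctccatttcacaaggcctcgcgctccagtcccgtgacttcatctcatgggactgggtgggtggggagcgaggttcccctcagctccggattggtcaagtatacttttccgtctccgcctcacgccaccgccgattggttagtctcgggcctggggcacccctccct

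In the Tfrc window the hypoxia letters begin 228 bases before the start, and they are followed by overlapping ETS letters beginning 222 and 218 bases before it. A further ETS match on the other strand begins 92 bases before the start. The window before the other annotated Tfrc start, chr16:32608646-32608895, holds 1 match, a GATA beginning 239 bases before it. It overlaps the window shown, so the ETS matches just described lie past that other start. Fth1 has 1 ETS match, 40 bases before the start shown, and the window before its other annotated start, chr19:9980350-9980599, has 3 ETS and 4 GATA matches, whereas the Ftl1 window shown has none of the 3 motifs. Such short letters are common: of all 32851 RefSeq windows, 64.1% hold the ETS letters, 53.6% the GATA letters and 16.6% the hypoxia letters. Among the members' 14 windows, 9 hold the ETS letters, 6 the GATA letters and 3 the hypoxia letters, the last in Tfrc and Tfr2 alone. A match is a string of letters and does not show that a factor binds there.

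Tfrc, the receptor that carries transferrin into cells, had raw intensities of 1143 and 1327 in the CKO-labelled samples and of 3434 and 3879 in the controls by its brighter probe. Its normalized log2 levels were 10.10 and 10.12 against 11.81 and 11.83. The groups lie far apart and the arrays of a group lie close together. The difference was -1.71 ± 0.09 (log2, CKO-labelled minus control, SE, n = 2 a group), a level 3.27-fold higher on the control arrays. The other probe, with log2 levels of 10.01 and 10.04 against 11.70 and 11.71, gave -1.68 ± 0.09. Both probes of the same transcript thus gave nearly the same difference. Only 0.104% of the 10603 genes had a lower difference than Tfrc.

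Tfr2, a second transferrin receptor best known as an iron sensor of liver and red cell precursors, was near background. Its probe that passed the filter stood at log2 levels of 5.27 and 5.43 on the CKO-labelled arrays and of 5.39 and 5.89 on the control arrays. The groups overlap, and the difference was -0.29 ± 0.18 (SE, n = 2 a group). It was -0.55 without control replicate 1 and -0.04 without control replicate 2, so a single array sets its size. The other Tfr2 probe was above background on 1 array.

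Steap3, the endosomal reductase of red cell precursors, was dim as well, with 1 of 4 probes past the filter. That probe stood at 5.09 and 5.29 on the CKO-labelled arrays and at 4.82 and 5.81 on the control arrays, the lowest and the highest value both being controls. The difference of -0.12 ± 0.30 became -0.63 without control replicate 1 and 0.37 without control replicate 2, so its direction depended on which control array was kept.

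Slc11a2 encodes DMT1, which moves iron out of the endosome. Its brightest probe stood at 8.22 and 8.07 on the CKO-labelled arrays and at 8.39 and 8.23 on the control arrays, a difference of -0.17 ± 0.11. The probe drawn on the RefSeq transcript stood at 7.13 and 7.29 against 7.69 and 7.68, a difference of -0.48 ± 0.10. A dim further probe stood at 5.17 and 5.20 against 5.90 and 6.02, a difference of -0.77 ± 0.10. On all 3 probes each control array was higher than each CKO-labelled array after normalization, although narrowly on the first. The size of the difference therefore depends on the probe, and the probes were designed on separate transcript records of the gene. Before normalization the groups overlapped on the first probe, at raw intensities of 385 and 401 against 389 and 395, and on the RefSeq probe, at 232 and 277 against 271 and 297. On the dim probe they did not, by a narrow gap, at 129.96 and 140.53 against 140.63 and 155.66.

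Slc25a37, known as mitoferrin 1, brings iron into the mitochondria of red cell precursors. Its raw intensities were 814 and 944 on the CKO-labelled arrays and 1531 and 1539 on the control arrays. In normalized log2 levels that was 9.55 and 9.58 against 10.62 and 10.47, without overlap, and the difference was -0.98 ± 0.10 (1.97-fold higher on the control arrays). A second probe, placed on another transcript record, stood at 7.94 and 8.10 against 8.52 and 8.65, a difference of -0.56 ± 0.11. Both probes point the same way and differ in size.

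**Figure D1:**
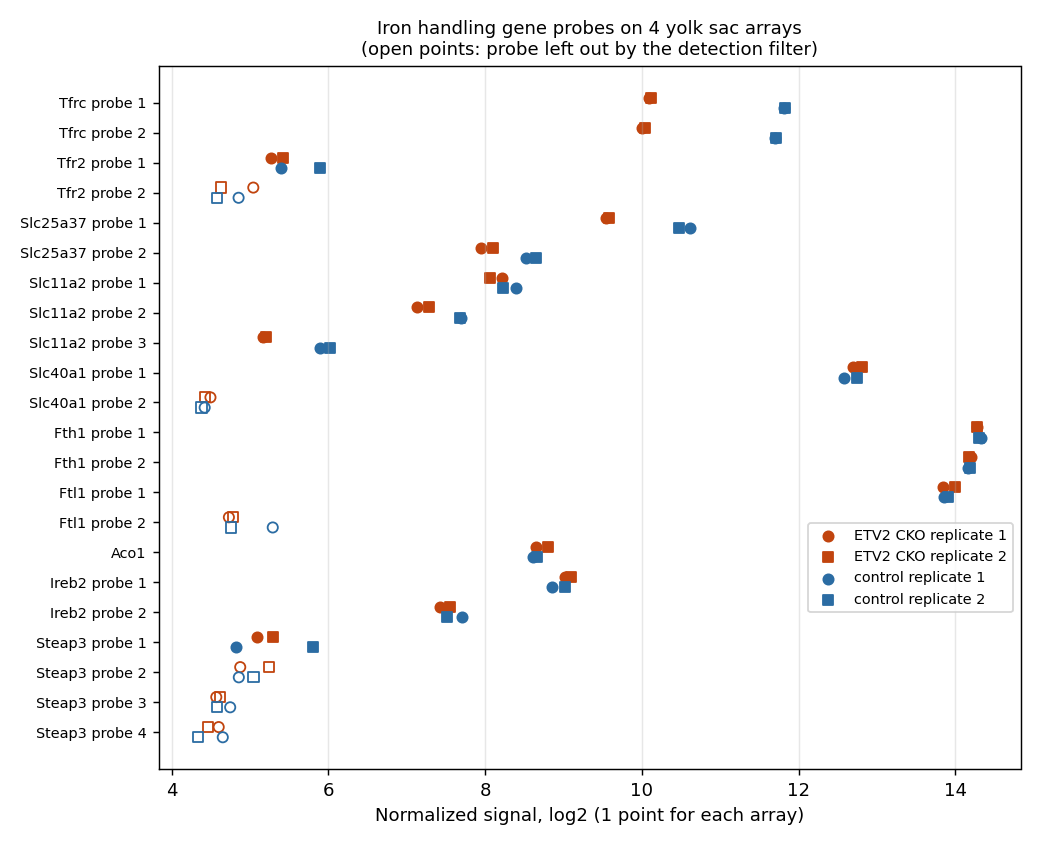
Normalized log2 signal of each member probe on each of the 4 arrays, with ETV2 CKO in red and control in blue, circles for replicate 1 and squares for replicate 2, and open points for probes that did not pass the detection filter. Both Tfrc probes and both Slc25a37 probes separate the groups, while the Fth1, Ftl1 and Slc40a1 probes that passed lie close together on all 4 arrays; levels of different probes are not comparable.

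The storage genes were level. Fth1, the ferritin heavy chain that oxidizes iron as it enters the shell, stood at 14.28 and 14.28 on the CKO-labelled arrays and at 14.33 and 14.31 on the control arrays, a difference of -0.04 ± 0.09. Its second probe gave 0.01 ± 0.09, so the probes did not share a direction. Ftl1, the ferritin light chain, stood at 13.84 and 14.00 against 13.86 and 13.90, a difference of 0.04 ± 0.10 that turned to -0.05 without CKO replicate 2. These probes lie near the top of the scale, where a bead array compresses changes. The brighter Fth1 probe was at 83.8% to 87.0% of the brightest probe of its array, and the Ftl1 probe at 59.9% to 70.4%. Ferritin genes also have near-identical processed copies in the mouse genome, and which copies these probes read is uncertain. The second Ftl1 probe was above background on 1 array only.

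Slc40a1 encodes ferroportin, the iron exporter. Its log2 levels were 12.70 and 12.82 on the CKO-labelled arrays and 12.58 and 12.75 on the control arrays. The groups overlap and the difference was 0.09 ± 0.11. Raw intensities between 5815 and 7904 put this probe well above background on each array, whereas the other Slc40a1 probe was not above background on any.

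The sensors differed little. Aco1, which encodes IRP1, an aconitase that turns into an RNA-binding protein when its iron-sulfur cluster is lost, stood at 8.65 and 8.81 against 8.62 and 8.66, a difference of 0.09 ± 0.10. Ireb2, which encodes IRP2, stood at 9.02 and 9.09 against 8.86 and 9.02 by its brighter probe, a difference of 0.12 ± 0.10. The dimmer Ireb2 probe gave -0.12 ± 0.11, and the mean of both probes -0.0011. The 2 probes of Ireb2 thus disagree in direction, and the groups overlap on the dimmer one.

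**Figure D2:**
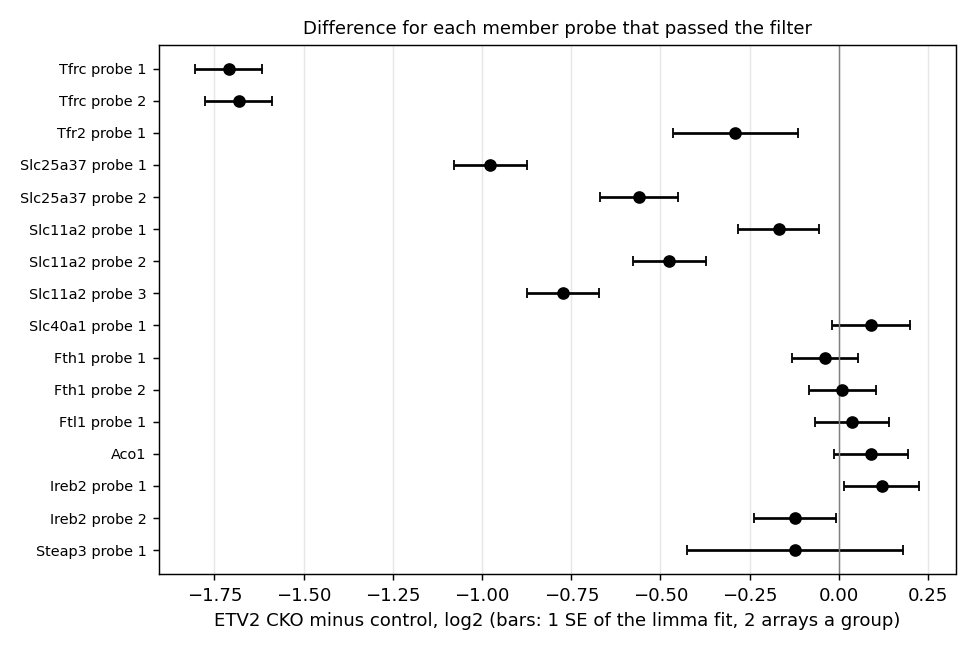
Difference between ETV2 CKO and control arrays on the log2 scale for the 16 member probes that passed the filter, with bars of 1 SE from limma (2 arrays a group). The Tfrc probes lie at -1.71 and -1.68, the Slc25a37 probes at -0.98 and -0.56, and the Slc11a2 probes between -0.77 and -0.17, while ferritin, ferroportin and the sensors lie between -0.12 and 0.12.

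All 10 members had a probe that passed the filter, 16 of 22 probes in all, and 2 genes, Tfrc and Slc25a37, lay past the limma adjusted p threshold of 0.05 over all genes, both lower on the CKO-labelled arrays. Over all 10603 genes 10.8% were lower and 14.4% higher past the same threshold. Of these calls 57.2% were higher, and 70.3% under median scaling, where Tfrc and Slc25a37 were still the members past it. Because the members were chosen on this contrast, nothing is read from that share. With the mean of a gene's probes in place of the brightest, Slc11a2 was also past it, and without control replicate 1 so were Tfr2 and Steap3. The groups did not overlap for 5 of the 10 members and for 65.4% of all genes. The median difference of the members was -0.08, beside 0.02 for all genes.

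The 5 genes whose profile over the 4 arrays lay nearest to that of Tfrc, by Euclidean distance of centred log2 values among 10593 other genes, were Dusp4, Tmem100, Slc39a8, 4930523C07Rik and Slc7a3. Their distances ran from 0.032 for Dusp4 to 0.20 for Slc7a3. Dusp4 encodes a phosphatase of MAP kinases, with a difference of -1.74 ± 0.09, and Slc39a8 a metal importer. With 4 arrays such likeness holds little beyond the size of the group difference. Slc39a8 is also on the list of iron uptake genes described next.

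Outside the members, 7 lists of iron genes named 84 genes, of which 77 were on the array and 65 were tested. Of these, 4 fell and 11 rose on the CKO-labelled arrays, and 50 did not pass the test (limma, adjusted over all genes). Of the 11, 3 (Scara5, Slc22a17 and Hpx) were below background on both control arrays and entered the test through the CKO-labelled arrays alone, which leaves 8, and the same holds for 155 of the 1527 higher calls among all genes. With such calls kept, 6.15% were lower and 16.9% higher, beside 10.8% and 14.4% of all genes. Without them the higher calls were 8 of 65, beside 1372 of 10603 among all genes. The median difference was -0.05 beside 0.02. The count of genes that fell was 11 without background correction, with the offset of 50 and on the authors' values, and 12 with the stricter filter or an intensity trend. It was 2 without either CKO replicate or without control replicate 1. The count that rose was 7 on the authors' values, with no filter on dim probes and without control replicate 1, 5 without CKO replicate 2, and 4 without CKO replicate 1 or control replicate 2.

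In the list of iron uptake and its regulation, 1 of 17 genes fell and 6 rose, 2 of the 6 having passed the filter through the CKO-labelled arrays alone. Slc39a8, which encodes ZIP8, an importer of zinc, manganese and iron that does not need transferrin, fell from log2 levels of 9.97 and 9.89 on the control arrays to 8.04 and 8.10. The difference was -1.86 ± 0.09 (limma adjusted p = 0.000302, 3.62-fold), with -0.93 ± 0.22 by a dimmer probe. Hamp encodes hepcidin, the hormone that makes cells degrade ferroportin. It rose from 5.09 and 5.45 to 6.63 and 6.34, by 1.22 ± 0.16 (limma adjusted p = 0.00422). This signal is dim, and its size depends on the background step, being 0.47 without it, 0.77 with the offset of 50 and 0.25 on the authors' values. The probe may also read the near-identical copy Hamp2, for which no probe passed the filter.

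The metalloreductase gene Steap2 rose by 0.61 ± 0.09 (limma adjusted p = 0.00674), from 9.68 and 9.76 to 10.36 and 10.30. Slc22a17, which encodes a receptor of the siderophore carrier lipocalin 2, was at least 1.17-fold higher after background correction. The control arrays were below background, so it entered the test through the CKO-labelled arrays alone. Its log2 difference was 0.15 without that correction and 0.07 on the authors' values. The other higher genes were named after their values were seen. They were the ferritin receptor genes Scara5 and Timd2 (0.37) and the STEAP family gene Steap1 (0.42). Scara5 was at least 1.23-fold higher after background correction, likewise with the controls below background. Trf, which encodes transferrin itself, stood at -0.08 ± 0.10, and Hfe, a partner of both transferrin receptors, at -0.48 ± 0.23, and neither passed the test.

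Among 11 genes of heme and hemoglobin handling, 1 fell and 3 rose, 1 of the 3 having passed the filter through the CKO-labelled arrays alone. Blvrb, a biliverdin reductase abundant in red cells, fell by 0.54 on the log2 scale (limma adjusted p = 0.00859), and its dimmer probe stood at -0.94. Hpx, the plasma heme scavenger hemopexin, was that gene, at least 1.39-fold higher after background correction, with both controls below background. Its log2 difference was 0.32 without that correction and 0.15 on the authors' values. Lrp1, a receptor of heme-bound hemopexin, rose by 0.54 ± 0.14 (0.14 on the authors' values) and the heme-binding protein gene Pgrmc1 by 0.39 ± 0.09. Hmox1, the inducible enzyme that frees iron from heme, stood at -0.17 ± 0.09 and did not pass.

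In the list of mitochondrial iron and iron-sulfur assembly 1 of 14 genes fell, Iba57, a late-acting assembly factor, at -0.38 ± 0.11 (limma adjusted p = 0.0456). That is 7.14% lower, beside 10.8% of all genes. None rose, and 13 of the 14 differences were below 0, with a median of -0.16 and a range of -0.38 to 0.02. Over all genes, 47.3% had a lower difference than Cul1, which stood at 0.0007. Slc25a28, the more broadly expressed mitoferrin, stood at -0.32 ± 0.10 and did not pass the test. In cytosolic iron-sulfur assembly Nubp2, a scaffold protein gene, fell by 0.45 and Ciao1, of the complex that hands clusters to target proteins, rose by 0.63 (limma adjusted p = 0.0203 and 0.00599), with 6 of 8 genes not past the test. The difference of Ciao1 was 0.25 on the authors' values. Of 10 sensing partners 1 rose, the oxygen- and iron-dependent hydroxylase gene Egln1, by 0.58 ± 0.15, which became 0.11 on the authors' values and 0.21 with the background left in. Of the 3 storage partners and 2 export partners tested none passed in limma, at differences of -0.16 to 0.14 and of 0.28 to 0.31, and 1 of them, the ferroxidase gene Heph, had an unadjusted p under 0.05 (0.0174). Among these was Ncoa4, the receptor that delivers ferritin for breakdown, at 0.12 ± 0.09 by its brightest probe. Its other probes past the filter stood at 0.28 ± 0.11 and -0.34 ± 0.11, so the Ncoa4 probes disagree in direction. Several of these calls were near the threshold: that of Slc22a17 was lost in 8 of 12 alternatives, those of Lrp1, Pgrmc1, Iba57 and Egln1 in 5 each, that of Nubp2 in 4 and that of Hpx in 1, whereas those of Slc39a8, Hamp, Steap2, Blvrb and Ciao1 held in all that were run.

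**Figure D3:**
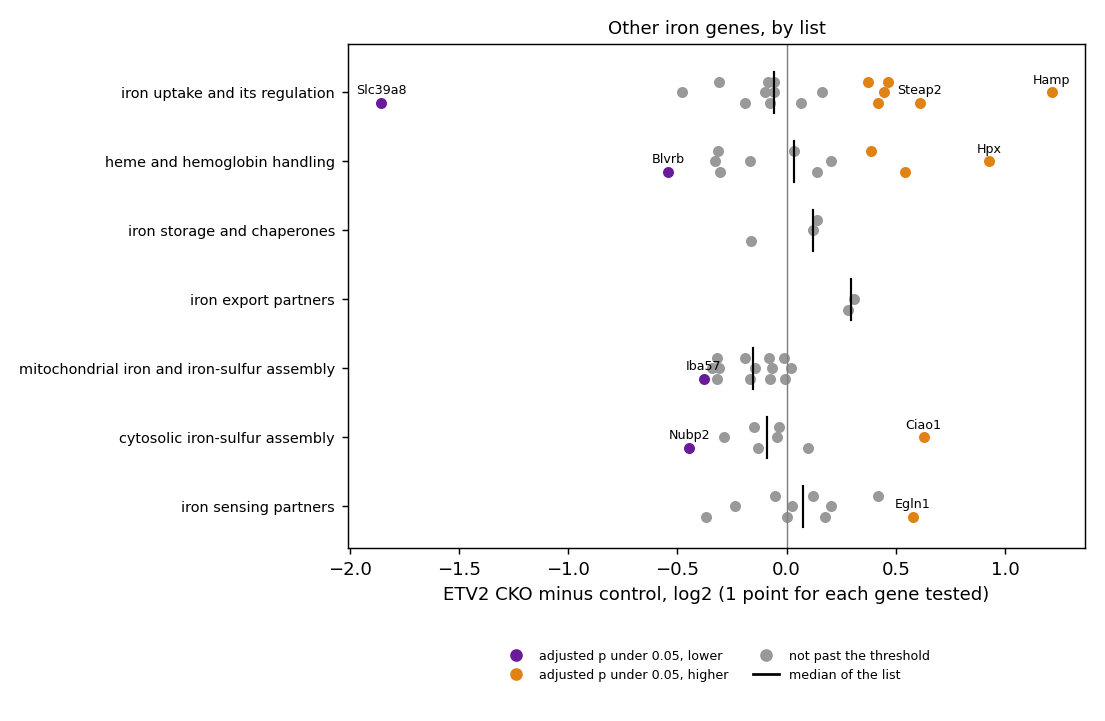
Difference between ETV2 CKO and control arrays on the log2 scale for the 65 tested genes of 7 iron lists, 1 point a gene, purple where lower and orange where higher past the limma adjusted p threshold of 0.05, grey otherwise, with a black bar at each list's median. Slc39a8 at -1.86 and Hamp at 1.22 stand apart, and 13 of 14 mitochondrial genes lie below 0, 1 of them past the threshold.

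Markers of red cells moved with Tfrc and Slc25a37. Of 15 tested erythroid genes other than globins 12 fell, none rose and 3 did not pass the test (limma, adjusted over all genes). That is 80% lower, beside 10.8% of all genes. By the brightest probe of each gene the median was -0.67 and the range -1.19 to -0.10. Sptb stood at -0.44 by that probe and at 0.06 ± 0.12 by its other one past the filter. The factor genes Klf1 and Gata1, the Rh complex gene Rhag and the ankyrin gene Ank1 were lowest with background correction, at -1.19, -1.16, -1.17 and -0.96. Without it Gata1 stood at -0.47 and Rhag at -0.71, and on the authors' values at -0.25 and -0.45. A dimmer Gata1 probe stood at -0.58 ± 0.23 with background correction. The summed normalized signal of the list was 12940 and 13350 on the CKO-labelled arrays and 18970 and 20220 on the control arrays. The difference of Tfrc, at -1.71, lay below all 15 of these, and that of Slc25a37 lay within their range. Rhd and Epb42 did not pass the detection filter in either group. Alas2, the first enzyme of heme synthesis in red cells, whose message carries an iron-responsive stem-loop like those of ferritin, fell by 0.51. In RNA of whole tissue, fewer red cells and less of a transcript in each red cell cannot be told apart, and the part of the red cell markers in the Tfrc difference was not tested.

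The summed globin signal was 99740 and 100300 against 103500 and 104400. It is carried by probes such as that of Hba-a1, at log2 levels of 14.50 and 14.50 against 14.53 and 14.53, at the top of the scale, where a bead array compresses changes. Of 7 globin genes 2 fell, Hbb-b2 by 0.74 and Hbb-bs by 0.32, the latter call being lost in 7 of 13 alternatives. Hbb-bt stood at -0.29 without passing the test, with -0.34, -0.36 and -1.13 by its other probes, and the 6 Hbb-bs probes ran from -0.59 to -0.18. Of 15 visceral endoderm markers none passed the test in limma, with 1 at an unadjusted p under 0.05, and their differences by the brightest probe lay between -0.22 and 0.19. Apoc2, an apolipoprotein gene, stood at 0.18 by that probe and at -3.61 ± 0.11 by its other one. The summed signal of the 15 markers was 137800 and 139300 against 134800 and 137200. Several of these also lie near the top of the scale, such as Apoa1 at 14.27 and 14.24 against 14.24 and 14.26.

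Parietal endoderm and trophoblast genes rose in 8 of 9 cases, with a summed signal of 15720 and 16010 against 8231 and 8368, and mesothelium and mesenchyme genes in 7 of 10, with 19860 and 20310 against 13490 and 13910. Tpbpa and Syna of the first list and Postn and Lrrn4 of the second did not pass the filter. Hand1 is counted as higher in both lists, and 14.4% of all genes were higher. Of 7 macrophage genes 3 rose, with 1244 and 1364 against 1080 and 1141, although 6 further ones, Adgre1 and Ptprc among them, did not pass the filter. Of these 3, Lyz2 passed the filter through the CKO-labelled arrays alone and its call was lost in 8 of 12 alternatives, and that of Fcer1g in 3 of 13. Of 11 endothelial genes 3 fell and 2 rose, at 8892 and 8946 against 9000 and 9118, the call of Tie1 being lost in 4 of 13 alternatives. The 2 that rose were Sox17 and Cdh5. Cdh5 stood at 0.43 ± 0.10 by its brighter probe and at 0.06 ± 0.10 by the other. The part of these lists in the rise of Hamp, Steap2 and the other iron genes was not tested.

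**Figure D4:**
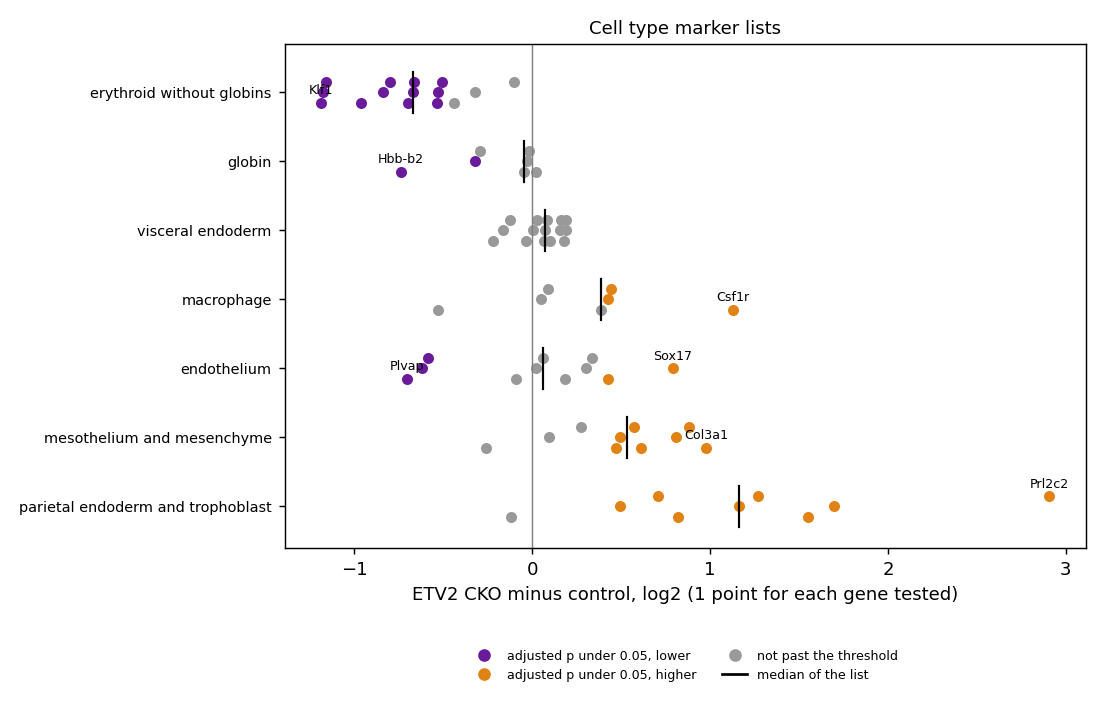
Difference between ETV2 CKO and control arrays on the log2 scale for the tested genes of 7 marker lists, 1 point a gene, colours as for the iron lists (purple lower, orange higher, grey not past the threshold) and a black bar at each median. Of the erythroid genes 12 of 15 fell, none of 15 visceral endoderm genes passed the test, and 8 of 9 parietal endoderm and trophoblast genes rose.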

How the data were processed

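Total RNA of 4 yolk sac samples was labelled with biotin and read on Illumina bead arrays, per the labels' protocols. The deposited table holds probe intensity values on a linear scale without background subtraction, as judged from minima of 83.9 to 92.7 and unequal medians, and a detection p-value beside each. The authors' processed intensity table, brought to 1 distribution with a median of 201.4, served as an alternative, and its further steps stay unknown. The submitters' processing notes name lumi 2.15.1 with no role.

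Signals were corrected and quantile-normalized with neqc of limma 3.58.1 (R 4.3.3, offset 16, log2). The filter kept 18817 probes (16301 named) whose detection p was below 0.05 on 2 or more arrays, and the brightest probe stood for a gene. Group alone was fitted with lmFit and eBayes (2-sided, Benjamini-Hochberg over 10603 genes, 6.54 degrees of freedom). Member probes take their values from the fit over all 18817 probes. An exact permutation test of 2 against 2 arrays cannot go below 0.333. A bound ("at least N-fold") sets the bright group against the lowest signal above background, after the correction and offset used here. It is no floor for other settings, where the difference can be smaller.

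Symbols came from the platform annotation: 34885 probes have 1 symbol, 18 several and 10378 none here. Members and lists were chosen with earlier results of these data known. Named genes are the members, the largest changes past the threshold in each iron list and the erythroid list (up to 4) and in other marker lists (up to 3, where named), the 5 profiles nearest to Tfrc, and Etv2, Xist and Eif2s3y; others were chosen after their values were seen. On simulated data of 10603 genes for this comparison, the test recovered 92% of 100 genes changed by 1 on the log2 scale and 0% of 100 changed by 0.5. It made 8 false calls. Far fewer genes were changed there than were called in the data (1144 lower and 1527 higher), which makes the adjusted threshold stricter. These shares therefore do not carry over to the data, where Timd2, for example, passed at 0.37.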

Additional observations from a re-analysis of the deposited data

How the results depend on the processing

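Tfrc, at -1.71, stood at -1.63 without background correction, -1.68 with the offset of 50 and -1.615 on the authors' values, and between -1.74 and -1.70 with 1 array left out. Over all 13 alternatives Tfrc and Slc25a37 (-1.05 to -0.77) stayed past the threshold and lower. Of 1144 genes lower and 1527 higher among all genes, median scaling gave 649 lower and moved the higher share of calls from 57.2% to 70.3%, and leaving out 1 array gave 522 to 633 lower and 722 to 964 higher, in fits that assume the lone array of a group to vary like the other group. The iron lists had 4 genes lower, against 11 without background correction, with the offset of 50 and on the authors' values, 12 with the stricter filter and 12 with an intensity trend, and 2 to 4 with 1 array left out. They had 11 higher, against 7 on the authors' values, 7 with no filter on dim probes and 4 to 7 with 1 array left out. The causes were not tested, except that fits without an array hold fewer samples. The replicate numbers are shared by the groups, but the labels do not say that they pair samples, and deviations of same-numbered arrays correlated at 0.066 across genes. With the replicate number as a block, 1164 genes were lower and 1561 higher, the iron lists had 5 lower and 11 higher, and Tfrc stayed at -1.71. Calls of the single genes that the naming rule took were lost in 55 comparisons and reversed in 0. Signal near background limits Tfr2, Steap3, Hamp, Hpx, Slc22a17, Egln1 and Gata1, none of which passed the stricter filter, whereas Lrp1, Ciao1 and Rhag did. The differences of all 10 were nearer 0 when background was left in, with the offset of 50 and on the authors' values. The same held for others, such as Csf1r, Hbb-b2 and Tie1.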
